A study of Mus musculus with 2 samples.

Results

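The genes described here encode cell-surface receptors for hepatocyte growth factor (HGF), fibroblast growth factors (FGFs), the ligands Gas6 and protein S, and insulin. They were taken as every gene probe of the array that the scanner files name Met, Mst1r, Fgfr1, Fgfr2, Fgfr3, Fgfr4, Fgfrl1, Axl, Mertk or Insr, which gave 22 probes of 10 genes among 41158 gene probes and 20054 named genes. The cells were expandable hepatoblasts, liver progenitor cells from C57BL/6 mice kept in a defined medium on Matrigel or laminin. Total RNA of a culture at passage 5 and of a culture at passage 20 was hybridised to 1 array each. Both cultures received the same listed additives: insulin with transferrin and selenite, nicotinamide, a vitamin C phosphate, albumin, epidermal growth factor, the GSK3 inhibitor CHIR99021, the TGF-beta receptor inhibitor E-616452, and the lipids lysophosphatidic acid and sphingosine 1-phosphate. The listed additives name insulin but neither HGF nor an FGF. Each passage was its own experiment in the labels, so passage and experiment cannot be told apart, and the coating used for either culture is not stated. With 1 array per passage there is no replicate check, and every difference below compares 2 arrays. In a culture, fewer cells that express a gene and less RNA per cell cannot be told apart.

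These receptors are kinases that span the membrane once, with the exception of the product of Fgfrl1, which binds FGFs but lacks the kinase domain. Ligand binding activates the kinase domains, which then phosphorylate each other and docking proteins that feed the Ras-ERK and PI3 kinase-AKT pathways. In the liver, HGF acting through Met supports the growth and survival of hepatoblasts and hepatocytes, FGFs from cardiac mesoderm help to induce the liver bud, Fgfr4 with its co-receptor beta-Klotho restrains bile acid synthesis, and the insulin receptor directs glucose and lipid handling. Axl and Mertk belong to the TAM family of receptors, which is known in macrophages and in the clearance of dying cells.

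Of the 10 genes, 6 were well above background on both arrays (Met, Fgfr3, Fgfr4, Fgfrl1, Axl and Insr). Fgfr2 was so at passage 5 only, and Fgfr1, Mst1r and Mertk were so on neither array. Of all 20054 named genes, 10749 were well above background on both arrays and 58.8% on at least 1. Fgfrl1 was at least 2-fold lower at passage 20, and no gene of the set was 2-fold higher. Of the 11799 named genes measured, that is above background on 1 array or both, 9.00% differed 2-fold in either direction, 5.74% being lower and 3.26% higher. The set therefore gave 1 such gene among 7 measured, too few to be set against that share. At 1.5-fold, Met was higher and Fgfrl1 lower, against a background of 10.4% of genes higher and 11.8% lower (22.2% in either direction). The median difference of the 6 genes measured on both arrays was 0.10 log2, against 0.08 for all 10749 genes measured on both.

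Levels below are log2 signals relative to the 75th percentile of each array's gene probes, which was a signal of 1085 at passage 5 and 853 at passage 20, so that equal raw signals are 0.35 log2 higher at passage 20 on this scale. Differences are passage 20 minus passage 5. The scanner software gives an error for each spot, and for the 11 probes above background on both arrays the error of a difference built from it was 0.20 to 0.43 log2. That error is technical and leaves out variation between cultures and between arrays. Different probes bind with different strength, so levels are compared between arrays for a probe and never between probes.

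**Figure D1:**
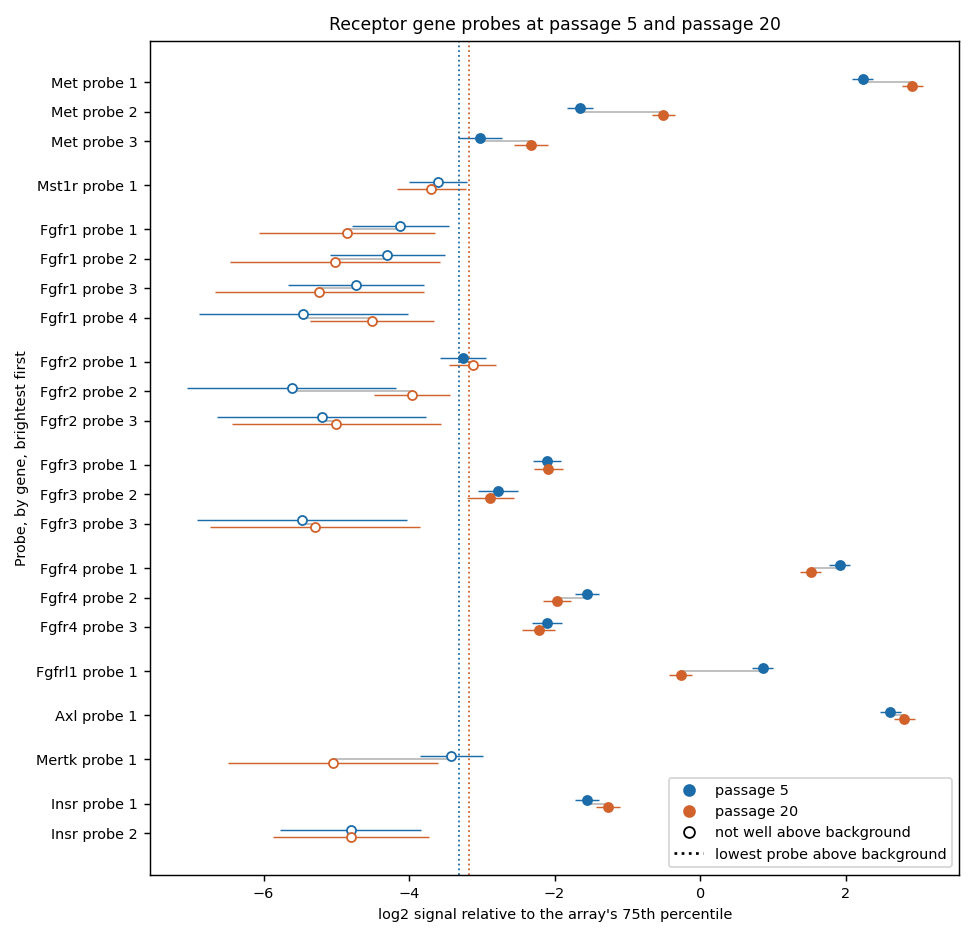
Levels of all 22 probes at passage 5 (blue) and passage 20 (orange), as log2 signal relative to each array's 75th percentile. Bars are the scanner software's error for the spot (median over 10 spots for the third probe of Fgfr1 and of Fgfr2), open circles are probes not well above background, and dotted lines mark the lowest probe above background on each array. All 3 probes of Met lie farther right at passage 20, that of Fgfrl1 lies farther left, and no probe of Fgfr1, Mst1r or Mertk is filled.

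The HGF receptor gene Met, whose product drives migration, survival and division of epithelial cells, was higher at passage 20 by each of its 3 probes. The brightest probe gave a deposited signal of 5114 at passage 5 and 6425 at passage 20, or levels of 2.24 and 2.91. The difference of 0.68 log2 (1.60-fold) exceeded the software error of 0.20 for that difference. Of the 10749 genes measured on both arrays, 730 (6.79%) had a larger positive difference than Met. The dimmest probe gave signals of 134 and 170 and a difference of 0.70 log2 (software error 0.38). It has the lowest GC content of all probes of the set, 20.0% of its bases, and the brightest one has 36.7%.

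The middle probe of Met, whose signal was 346 at passage 5 and 601 at passage 20, had the largest difference of the gene, 1.15 log2 or 2.21-fold (software error 0.23). By that probe alone Met would pass 2-fold. It starts at base 3437 of the transcript by the files' count, upstream of the brighter and the dimmest probes, which start at bases 6436 and 5857. The sequence of this probe is shown because it gave the largest difference of the 3 probes. It lies on the plus strand at chr6:17503299-17503358 of build mm9, within Met, and 1 of its 3 frames is free of stop codons:
Met middle probe: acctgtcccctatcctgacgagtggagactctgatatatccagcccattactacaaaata
The range of the probes, 0.47 log2, was matched or exceeded in 32.5% of the 4300 genes with several probes measured on both arrays. The scanner files do not state exons or untranslated regions for the probes, and these annotations were not used here. The brightest probe is at chromosome 6, 17523765 to 17523824.

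Mst1r encodes the receptor for macrophage-stimulating protein, the closest relative of Met. Its single probe, at chromosome 9, 107822566 to 107822625, gave signals of 89.6 at passage 5 and 66.0 at passage 20 and was above background on neither array. The lowest signals of probes well above background were 109 and 94.6, so no fold is given.

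Among the FGF receptor genes, Fgfrl1 and Fgfr4 were lower at passage 20, the first by more than 2-fold. Fgfrl1, the receptor without a kinase domain, is thought to hold FGF ligands away from the signalling receptors. Its single probe at chromosome 5, 109135524 to 109135583, gave a signal of 1967 at passage 5 and 708 at passage 20. Its level was 0.86 at passage 5 and -0.27 at passage 20, a difference of -1.13 log2 (2.18-fold lower), against a software error of 0.21. Only 341 of the 10749 genes (3.17%) had a more negative difference. With 1 probe and 1 spot on the array, no other measurement of this gene stands beside it.

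Fgfr4, the FGF receptor of hepatocytes that responds to the gut hormone FGF15, gave signals of 4108 at passage 5 and 2441 at passage 20 by its brightest probe, at chromosome 13, 55269977 to 55270036. The level was 1.92 at passage 5 and 1.52 at passage 20, so the difference was -0.40 log2 (1.32-fold lower; software error 0.20), and 13.9% of genes had a more negative one. The other 2 probes were designed on a cDNA that the files describe as a splice variant of Fgfr4 named 17b. Of these, the brighter gave signals of 369 and 218 and a difference of -0.41 log2 (software error 0.26), almost the value of the RefSeq probe. The dimmer gave 251 and 183 and -0.11 log2, which is less than its software error of 0.31. All 3 differences were negative. The brighter splice variant probe, plus strand, chr13:55269225-55269284 (mm9), is shown because it was designed on a named splice form, although whether it also binds other Fgfr4 transcripts was not tested:
Fgfr4 splice variant probe: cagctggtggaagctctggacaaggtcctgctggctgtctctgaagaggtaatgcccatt

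Fgfr3, a receptor best known for restraining bone growth, did not differ beyond the software error. Its brightest probe gave signals of 253 at passage 5 and 201 at passage 20, levels of -2.10 and -2.09 and a difference of 0.01 log2 (software error 0.28). A dimmer probe gave 158 and 115 and a difference of -0.11 log2 (software error 0.43). These probes overlap by 37 bases with 1 mismatch, C5T counted from the first base of the brighter probe (its base first), so they are not independent readings. The gene's last probe was above background on neither array, with signals of 24.4 and 21.8.

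Fgfr2, whose epithelial form binds FGF7 and FGF10 from mesenchyme, was at the edge of detection. Its brightest probe gave signals of 113 at passage 5, well above background, and 97.5 at passage 20, not well above it. On the scaled levels the passage 20 value was the higher one (-3.13 against -3.26), so no fold can be given. Of its other probes, the one spotted 10 times gave a median spot signal of 27.0 at passage 5 (21.9 to 73.9) and 24.0 at passage 20 (20.0 to 42.3), and none of its values was well above background. The remaining probe gave 22.2 and 54.9, also not well above background on either array, and starts at base 1466 of the transcript, before the others. Without a detected value on either side, its higher signal at passage 20 carries no fold. It lies on the minus strand at chr7:137385966-137386025 (mm9), within Fgfr2:
Fgfr2 upstream probe: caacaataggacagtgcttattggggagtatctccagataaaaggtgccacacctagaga

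Fgfr1, the FGF receptor of many mesenchymal and stem cells, was not well above background with any of its 4 probes on either array. The probe spotted 10 times gave a median signal of 39.2 at passage 5 (22.8 to 91.9) and 23.0 at passage 20 (20.0 to 24.9), and at passage 20 all 10 spots held the software's surrogate value for noise. The other 3 probes gave 62.3, 55.2 and 24.7 at passage 5 and 29.4, 26.3 and 37.4 at passage 20. Those lie under the lowest signals above background, 109 and 94.6, and they moved in both directions. A pair of these probes share 39 bases, shown in capitals, on the plus strand of chromosome 8 (mm9), at chr8:26684042-26684101 for the one designed on an older cDNA and chr8:26684063-26684122 for the RefSeq one:
Fgfr1 older cDNA probe: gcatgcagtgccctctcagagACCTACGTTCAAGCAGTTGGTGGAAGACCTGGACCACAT
Fgfr1 RefSeq probe: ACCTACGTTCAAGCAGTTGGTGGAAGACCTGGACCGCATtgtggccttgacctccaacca
They differ within the shared stretch by G36A, counted from the first base of the RefSeq probe, whose base comes first. Neither probe was well above background on either array.

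Axl and Mertk, the TAM receptors of the set, differed in detection. Axl gave signals of 6634 at passage 5 and 5949 at passage 20 with its single probe at chromosome 7, 26542953 to 26543012. Its levels were 2.61 and 2.80, and the difference of 0.19 log2 (1.14-fold) was within the software error of 0.20. Mertk gave 101 at passage 5 and 25.8 at passage 20 with its single probe at chromosome 2, 128627867 to 128627924. The passage 20 value is the software's surrogate for noise, and the probe was above background on neither array, so no fold is given.

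Insr, the insulin receptor gene, had a difference of 0.29 log2 (1.22-fold), from signals of 369 at passage 5 and 355 at passage 20 and levels of -1.56 and -1.27. The software error of this difference was 0.24, and 27.5% of genes had a larger positive one. The probe lies at chromosome 8, 3151667 to 3151726, and starts at base 8550 of the transcript. A further probe that starts at base 4038 gave only 38.8 and 30.6 and was above background on neither array. It is shown because it and the detected probe are readings of the same gene that disagree on detection. It lies on the minus strand at chr8:3159473-3159532 (mm9), and 55.0% of its bases are G or C against 35.0% of the detected probe:
Insr undetected probe: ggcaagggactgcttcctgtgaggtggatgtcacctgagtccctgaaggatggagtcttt

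**Figure D2:**
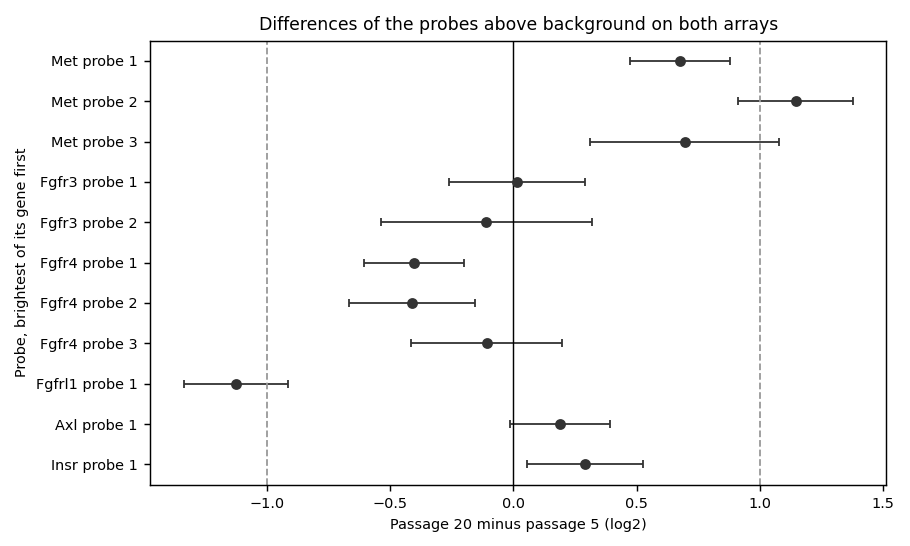
Differences (passage 20 minus passage 5, log2) of the 11 probes above background on both arrays, with bars for the scanner software's error of the difference and dashed lines at 2-fold. The 3 probes of Met lie between 0.68 and 1.15, the 3 of Fgfr4 between -0.41 and -0.11, and that of Fgfrl1 at -1.13.

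**Figure D3:**
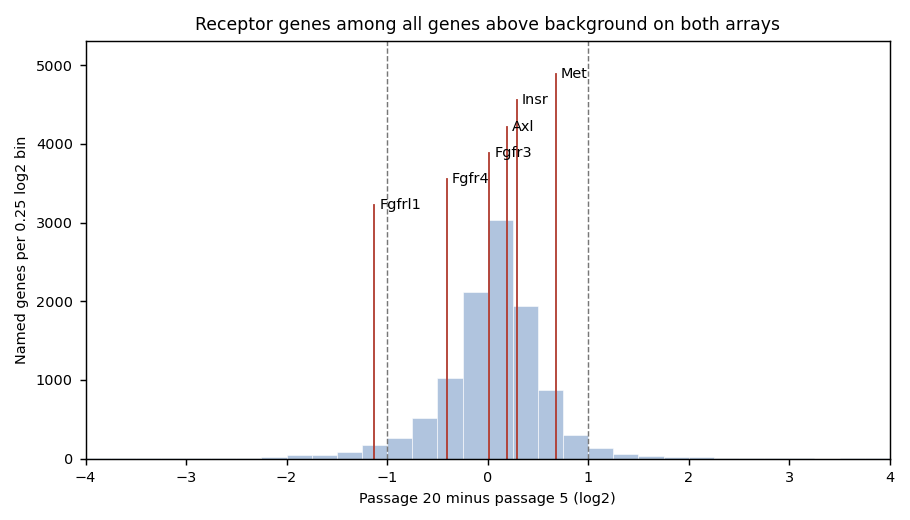
Histogram of the differences of the 10749 named genes above background on both arrays, in bins of 0.25 log2 (the axis ends at -4 and 4), with red lines for the 6 receptor genes measured on both; their height has no meaning. Dashed lines mark 2-fold. Fgfrl1 at -1.13 lies beyond the lower line, and Met at 0.68 lies inside the upper one.

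Most FGF, insulin and insulin-like growth factor ligand genes were not well above background in the cultures, and of 7 measured HGF and macrophage-stimulating protein genes the HGF activation inhibitor gene Spint1 and, by 1 of its 2 probes, Plau were at least 2-fold lower at passage 20, against 5.74% of all genes. Hgf was not well above background with any of its 4 probes. Mst1, which encodes macrophage-stimulating protein, had levels of 2.73 and 2.68 and a difference of -0.06 log2, while the probe of its receptor gene Mst1r was not above background. Spint1, an inhibitor of the proteases that activate HGF, was 3.48-fold lower (-1.80 log2, its other probe -2.25). Plau, the urokinase gene, was 2.35-fold lower by its brighter probe (-1.23 log2), but its other probe gave 0.83, and the call was lost with the mean over probes and with normexp background correction. Hgfac, which encodes an HGF-activating protease, differed by 0.88 log2, and Prss8 was at least 1.65-fold higher at passage 20, where alone it was above background. Such a bound sets the brighter array against the higher of the dim probe's own level and the lowest level above background on the dim array. Of the 13 genes of this list on the array none was 2-fold higher. The median was -0.25 log2 over the 6 measured on both arrays and -0.06 with the bound of Prss8.

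Of 21 FGF ligand genes on the array 3 were measured, and none passed 2-fold. The acidic FGF gene Fgf1 differed by 0.25, Fgf13, an FGF family gene whose product stays in the cell, by 0.74, and Fgf18 by -0.51 log2. Of 22 genes for co-receptors, carriers and heparan sulfate, which FGFs need to bind their receptors, 18 were measured. Of these 1 was higher and 2 lower, against 3.26% and 5.74% of all measured genes. Klb, the beta-Klotho gene, differed by 0.45 log2, while Kl was not above background on either array. Fgfbp1, whose product releases FGFs from the matrix, was 2.46-fold higher. The heparan sulfate proteoglycan genes Gpc1 and Sdc2 were 2.53-fold and 2.15-fold lower. The sulfotransferase gene Hs2st1 differed by -0.74 log2 by its brighter probe and by 0.25 by the other. The list's median was 0.09 log2.

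The TAM ligand gene Gas6 had levels of 3.49 and 3.69, a difference of 0.21 log2. Pros1, the protein S gene, was 2.31-fold lower (-1.21 log2, its other probe -0.88), and Tyro3, the third TAM receptor gene, was not above background. Of 7 insulin and insulin-like growth factor genes, only the receptor genes Igf1r (0.35 log2, its other measured probe 0.72) and Igf2r (0.55) were measured. Neither Insrr, a relative of Insr, nor the insulin and insulin-like growth factor ligand genes were above background.

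Downstream of the receptors, the lists of insulin receptor substrates, of docking proteins and of inhibitors held 1, 0 and 1 genes past 2-fold among 20 measured each, where 9.00% of all genes passed. Of 20 measured insulin receptor substrates and kinases Akt2, a kinase of insulin action, was lower (2.92-fold by its brighter probe, -0.42 log2 by the other), with a list median of -0.01 log2. The substrate gene Irs1 differed by 0.25 log2 and Sh2b2 by -0.51. Irs4 was above background at passage 20 only. Its value of 1.46-fold higher is the difference from its own dim level at passage 5, -3.20, and not a minimum. No probe was matched to Irs2. Of 20 measured docking proteins and Ras-ERK genes none passed 2-fold, and the median was 0.03 log2. The FGF receptor docking protein gene Frs2 differed by -0.41 log2, and the ERK pathway kinase genes Map2k1 and Map2k2 by 0.55 and -0.58. Of 20 measured inhibitors, phosphatases and sheddases Socs3, an inhibitor of cytokine and insulin signalling, was 3.86-fold lower by its brighter probe, but its other probe gave 0.22 log2. The receptor inhibitor genes Lrig1 and Lrig3 differed by 0.57 and -0.74 log2, and Socs1 by 0.64.

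Of 8 measured FGF feedback and target genes, 1 passed 2-fold, upwards, against 3.26% of all measured genes. The median was 0.45 log2, against 0.08 for all genes measured on both arrays. Spry2, an inhibitor of receptor signalling that ERK activity induces, was 2.42-fold higher (1.28 log2, its other probe 0.46), and Spry1 and the ERK phosphatase gene Dusp6 differed by 0.88 and 0.86 log2. The FGF-induced transcription factor gene Etv4 went the other way, by -0.98 log2. Etv1, Etv5 and Spry4 were not above background. Because epidermal growth factor in the medium also acts through ERK, these genes do not report on FGF receptors alone. Of 9 measured insulin and FOXO target genes none passed 2-fold. Igfbp1 and Klf15, above background at passage 5 only, were at least 1.99-fold and 1.97-fold lower at passage 20, Trib3 differed by -0.80 (its other probe -1.21) and Cited2 by 0.68 log2. Their median was 0.17 log2 over the 7 measured on both arrays and -0.04 with the bounds.

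Across the 10 pathway lists together, 109 of 156 genes on the array were measured, where 58.8% of all named genes were. Of these 109 genes, 2 were at least 2-fold higher and 7 lower, or 8.26% in either direction, against 9.00% of all measured genes. Of 48 other receptor tyrosine kinase genes on the array 19 were measured. At 2-fold 2 were lower and 1 higher, against 5.74% and 3.26% of all measured genes. The 17 measured on both arrays had a median of 0.35 log2, against 0.08 for all genes measured on both. In this group Epha2, an ephrin receptor gene, was 2.90-fold higher, Ephb3 2.92-fold lower, and Ntrk2, the receptor gene for brain-derived neurotrophic factor, at least 7.04-fold lower, with 1 of its 3 probes used and the others above background on neither array. The collagen receptor gene Ddr1 differed by -0.91 log2. Fgfrl1 at -1.13 log2 was thus not the only receptor gene past 2-fold in the cultures.

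**Figure D4:**
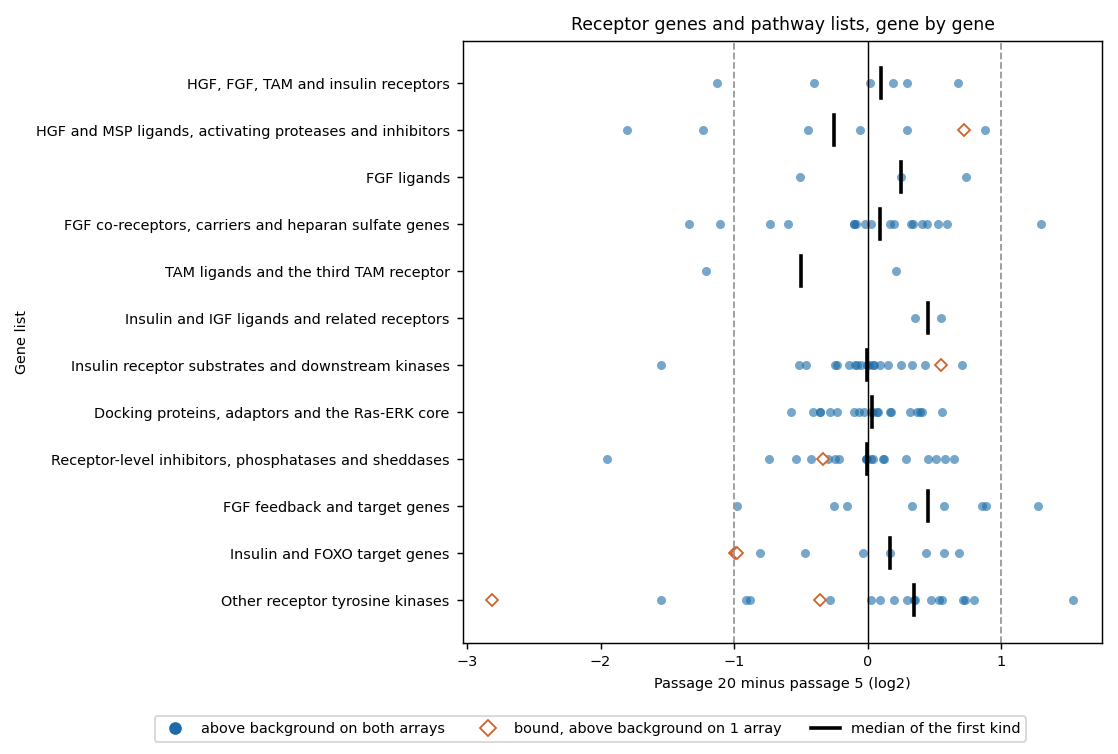
Differences (passage 20 minus passage 5, log2) of the measured genes, 1 point per gene, for the receptor genes and for each pathway list. Filled circles are genes above background on both arrays, black bars are medians of the circles, and dashed lines mark 2-fold. Open diamonds are bounds for genes above background on 1 array, or for Irs4 and Enpp1 the difference from the dim probe's own level. Medians lie at 0.10 for the receptor genes, 0.45 for FGF feedback genes and -0.25 for the HGF list.

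Markers of the labelled cells were mostly present. Of 16 hepatoblast markers 14 (passage 5) and 13 (passage 20) were above background, while Foxa1 and Dlk1 were so on neither array. Of all named genes, 58.8% were above background on at least 1 array. Within that list Cdh1 and Prox1 were 2.89-fold and 2.02-fold higher and Epcam 2.24-fold lower, and Gpc3, above background at passage 5 only, was at least 9.49-fold lower. These were 2 genes higher and 2 lower of 14 measured, where 3.26% and 5.74% of all measured genes passed. The call of Prox1 held in 3 of 10 other processing settings, and that of Epcam was lost with normexp. Of 10 hepatocyte markers 2 and 1 were above background, and Alb and Ttr were so on neither array. Other cell types could carry Axl, Mertk, Fgfr1 or Fgfrl1, so their markers were read as well. Of 12 macrophage and leukocyte markers 4 were above background at passage 5 and 2 at passage 20, and their summed level was 4.19 and 9.53 times the 75th percentile signal. Within it Ptprc and Adgre1 were above background on neither array, Cd14 was 2.67-fold higher, and Csf1r and Lyz2 were above background at passage 5 only. Of 12 fibroblast and stellate markers 3 and 2 were above background, with summed levels of 31.1 and 29.0, and Col1a1, Col1a2, Col3a1, Pdgfra and Pdgfrb were so on neither array, while Dcn was at least 15.9-fold lower. The other measured markers of that list, Acta2 and Reln, differed by -0.10 and 0.73 log2. Acta2, at levels of 4.75 and 4.65, made up most of the summed level. The median of these 2 genes was 0.32 log2 by their brightest probes and -0.44 with the mean over probes. Of 6 mesothelial markers 4 and 2 were above background (summed levels of 163 and 224), and Msln, at levels of 7.31 and 7.79, made up most of both sums. Msln differed by 0.48 and Krt7 by -0.40 log2, and Upk3b and Wt1 were at least 4.34-fold and 2.02-fold lower. The call of Wt1 was lost with normexp. Of 8 endothelial markers 0 were above background on either array. By their brightest probes the measured fibroblast and mesothelial markers thus differed in both directions. The part of these cell types in the difference of Fgfrl1 was not tested.

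The direction of Met, Fgfr4 and Fgfrl1 was the same under the main processing and 10 other settings of scaling, background correction, filter and probe choice, whereas those of Fgfr3, Axl and Insr were not. Met ranged from 0.37 to 0.84 log2, Fgfr4 from -0.71 to -0.31 and Fgfrl1 from -1.44 to -1.05. Not every setting could change these values. Requiring both arrays above background left them as they were, because each of these genes was so already. The mean over probes could not move Fgfrl1, which has 1 probe. No spot of the receptor genes was an outlier, so keeping outlier spots acted only through the scaling. The authors' values were read as quantile normalized and are not a separate scaling. Fgfr3 ranged from -0.30 to 0.23, Axl from -0.12 to 0.19 and Insr from -0.02 to 0.42, so their signs depended on the scaling and, for Fgfr3, also on the choice of probe (-0.05 with the mean over probes). Scaling to external spike-in RNA lowered the median of all genes from 0.08 to -0.13 log2, and centring on the array median lowered it to -0.23. Both settings shift every gene by the same amount, so that Met was at 0.46 and Fgfrl1 at -1.34 log2 with spike-in scaling. With spike-in scaling 19.5% of all 2-fold different genes were higher, with median centring 14.6% and with loess 24.2%, against 36.3% in the main setting.

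**Figure D5:**
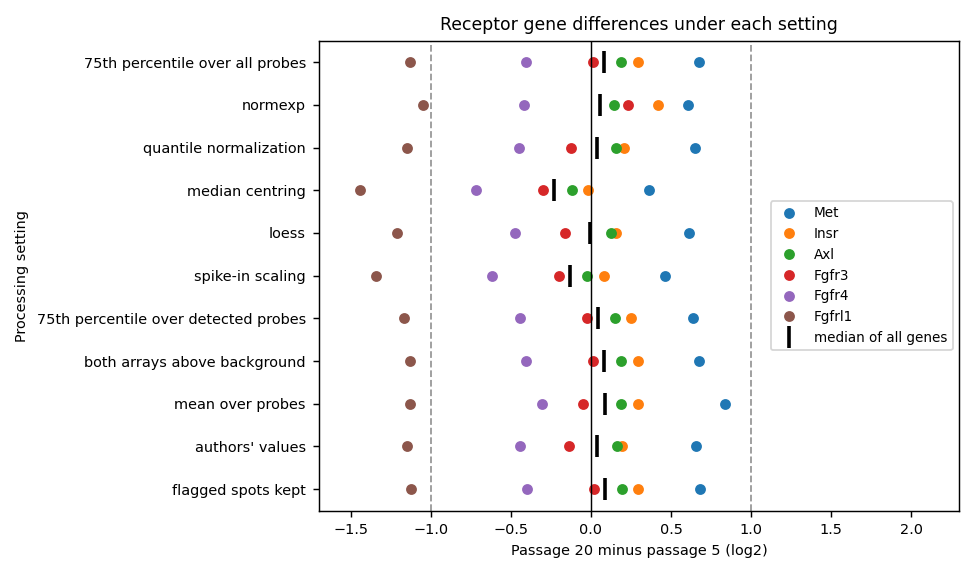
Differences (passage 20 minus passage 5, log2) of the 6 receptor genes measured on both arrays under each processing setting, with a black bar for the median of all genes measured on both arrays and dashed lines at 2-fold. Fgfrl1 lies beyond the lower line in every setting drawn, Met is positive in all of them, and Fgfr3, Axl and Insr cross 0.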

How the data were processed

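Cy3-labelled RNA of each culture was read on a 1-colour Agilent array, per the labels. Per the file headers, each spot's intensity was extracted by the authors with Agilent's software, Feature Extraction 10.7.3.1. That processed signal has background and a spatial trend removed, and carries a surrogate where it does not exceed noise. The columns of the authors' deposited log2 table share the same sorted values (largest gap 0.000609) and correlate with the log2 scanner signal at r = 0.99987 and 0.99986, so it was read as quantile normalized and served as an alternative, while the sources used here do not give its method. Other deposited columns flag outliers, saturation (0 spots) and signal well above background.

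Control and outlier spots were left out, log2 signals were averaged over a probe's spots, and each array's 75th percentile was subtracted (Python 3.11.15, pandas 2.3.3; limma 3.58.1 for alternatives). A gene took its probe with the highest mean level. Genes were named by accession through RefSeq of GRCm38.p6 (27668 probes), by symbol (5589) or older symbol (471), and 7446 probes stayed unnamed. These counts were taken before outlier spots were left out, and that of the 41158 gene probes after. Positions are in mm9, per the file headers. With 1 array per passage no p-value can be given; genes past 2-fold are counted. The genes, lists and alternatives were chosen with earlier results of these data known. Genes named from lists are the 4 largest differences of each and ligands, co-receptors and substrates fixed by role; a few undetected markers and targets were named after their values were seen, and some genes that the rule names are not reported here. With 2 arrays, no genes of like pattern were named.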

Additional observations from a re-analysis of the deposited data

How the results depend on the processing

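The number of receptor genes at least 2-fold different was 1 under the main setting and every alternative of background correction, scaling and values. It was also 1 with the other probe choice, with outlier spots kept and with both arrays required above background. Fgfrl1 was that gene each time. Because Fgfrl1 has 1 probe with 1 spot, probe choice and the requirement on both arrays could not change its value. Outlier spots could do so only through the scaling. Without a filter on dim probes the number was 2, because Mertk, below background on both arrays, was let in. At 1.5-fold it was 2 (Met and Fgfrl1) and at 4-fold 0. The median over the receptor genes, 0.10 log2, was 0.19 with normexp, 0.016 with quantile normalization, 0.061 with the percentile over detected probes and 0.013 with the authors' values; it was negative with loess (-0.020), spike-in scaling (-0.11), median centring (-0.21) and no filter (-0.040). It moved by no more than the repeat-spot SD of 0.04 log2 with the mean over probes and with outlier spots kept. Of the pathway and other receptor kinase genes 12 passed 2-fold, 31 without the filter, 33 at 1.5-fold and 1 at 4-fold. In the same order, 9.00%, 12.8%, 22.2% and 1.86% of all named genes tested passed. Their number was 11799, but 20054 without the filter. The other settings gave 9 to 18 pathway and receptor kinase genes, within 1.5 times. The split of these genes, 3 higher and 9 lower in the main setting, was 1 and 17 with median centring and 3 and 15 with spike-in scaling. The calls of Plau, Akt2, Socs3 and Spry2 were lost with the mean over probes, those of Plau, Pros1 and Ephb3 with normexp, those of Fgfbp1 and Spry2 with median centring, and that of Ntrk2 (and of the markers Gpc3, Dcn, Upk3b and Wt1) where both arrays had to be above background. The list medians above 0 for FGF feedback genes and other receptor kinases stayed positive under all settings with a filter on dim probes, from 0.14 and from 0.03 log2. The median of the HGF list became 0.29 without the filter, that of the co-receptor list -0.12 and -0.22 and that of the insulin and FOXO targets -0.04 and -0.14 with spike-in scaling and median centring, and that of the FGF ligands -0.06 with median centring. Those of the substrate, docking and inhibitor lists were -0.22, -0.18 and -0.22 with spike-in scaling and -0.32, -0.28 and -0.32 with median centring. The substrate and inhibitor medians were negative in 10 of 11 settings with a filter on dim probes, and the docking median in 6. No paired analysis was possible because each passage has 1 array. Dim signal, with 10 of the 22 probes above background on neither array, limits what can be said of Fgfr1, Fgfr2, Mst1r and Mertk.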
